A study of Mus musculus with 18 samples.

Results

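Macrophages clear dying cells by a process called efferocytosis, and 10 genes of its recognition step were followed across all 18 libraries of the series. They were chosen by name among the 18668 genes of the deposited table: the receptor tyrosine kinases Mertk, Axl and Tyro3 (the TAM receptors), the soluble ligands Gas6 and Pros1, the bridging protein Mfge8, the integrin subunits Itgav and Itgb5, the phospholipid-binding protein Anxa1 and the engulfment adaptor Elmo1. All 10 were listed, and all 10 passed the filter on low values (at least 0.1 RPKM in at least 3 libraries) that left 12838 genes for testing. RPKM is the number of reads of a gene scaled to its length and to the reads of the library.

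A dying cell exposes phosphatidylserine on its surface. Gas6 and protein S (Pros1) bind this lipid with one end and a TAM receptor with the other, and Mfge8 links it to the integrin made of the alpha v (Itgav) and beta 5 (Itgb5) chains. Downstream of these receptors, Elmo1 joins a Dock protein to activate Rac and reshape the actin cytoskeleton around the prey. In atherosclerotic lesions, Mertk is the TAM receptor best known for this task, and uncleared foam cells feed the necrotic core. Annexin A1 can act as a bridge to phosphatidylserine and as a ligand of formyl peptide receptors.

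The cells were bone marrow-derived macrophages (BMDM) from C57BL6 mice, grown from marrow with M-CSF for 7 days. The donors were either Apoe-/- or Apoe-/-/Treml4-/- (double knockout, DKO), so that every library, controls included, lacked Apoe. Cells of each genotype received vehicle (PBS, called untreated) or oxidized low-density lipoprotein (oxLDL), the particle that turns macrophages into foam cells, at 10 or 60 µg/ml for 16 h according to the design text. The study's methods give a longer exposure, and a treatment note in the labels also mentions LPS, which no sample title names. Each of the 6 groups had 3 biological replicates. The age and sex of the mice, and whether marrow was pooled, are not given for these cultures in the sources used here. The sample labels name no addition of apoptotic cells, so the values are transcript levels and not engulfment.

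Treml4 was listed at 1.86 to 8.39 RPKM in the Apoe-/- libraries, and no DKO library had over 0.0116 RPKM. All 10 macrophage markers were detected, and their summed level ran from 9285 to 12213 RPKM in untreated Apoe-/- cells and from 6698 to 8699 RPKM at oxLDL 60. In DKO it ran from 8721 to 11366 RPKM in untreated cells and from 5701 to 7331 RPKM at oxLDL 60. Xist, a transcript of female cells, was listed at 7.25 to 14.5 RPKM in the 6 libraries of Apoe-/- replicate 2 and DKO replicate 3 and did not exceed 0.069 RPKM elsewhere, so the genotypes each held 1 such set of cultures. Within a genotype, libraries with the same replicate number deviated from their group means together in 18 of 18 pairs. The estimated depth was 39.7 to 54.2 M reads per library. In bulk RNA such as this, fewer cells of a type and less RNA per cell cannot be told apart.

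The promoters of Gas6, Mertk and Itgav are shown because these were the members called between oxLDL 60 and untreated cells in both genotypes. Each window holds 250 bases before and 50 bases after the RefSeq start in the build GRCm38.p6, is read 5′ to 3′ on the strand of the gene, and has the GC box core GGGCGG, on either strand, in capitals. The windows are chr8:13494486-13494785 (minus strand) for Gas6, chr2:128698665-128698964 (plus strand) for Mertk and chr2:83724147-83724446 (plus strand) for Itgav.
Gas6: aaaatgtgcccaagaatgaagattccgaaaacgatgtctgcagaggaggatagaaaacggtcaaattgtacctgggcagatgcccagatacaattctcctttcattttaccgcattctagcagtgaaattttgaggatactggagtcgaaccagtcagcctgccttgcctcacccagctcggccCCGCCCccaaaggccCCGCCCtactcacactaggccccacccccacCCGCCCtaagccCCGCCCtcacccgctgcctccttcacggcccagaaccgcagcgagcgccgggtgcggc
Mertk: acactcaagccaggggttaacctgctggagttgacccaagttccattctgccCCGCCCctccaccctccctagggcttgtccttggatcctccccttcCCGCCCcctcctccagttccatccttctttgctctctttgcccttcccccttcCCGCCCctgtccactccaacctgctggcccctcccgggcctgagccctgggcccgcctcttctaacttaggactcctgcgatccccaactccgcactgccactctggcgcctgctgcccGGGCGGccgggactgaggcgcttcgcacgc
Itgav: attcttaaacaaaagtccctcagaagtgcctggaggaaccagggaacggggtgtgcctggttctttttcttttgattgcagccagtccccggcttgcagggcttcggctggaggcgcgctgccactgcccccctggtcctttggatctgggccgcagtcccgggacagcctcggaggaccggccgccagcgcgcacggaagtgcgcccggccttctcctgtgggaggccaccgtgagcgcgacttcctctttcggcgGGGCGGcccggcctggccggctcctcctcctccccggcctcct

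The Gas6 and Mertk windows each held 4 copies of GGGCGG and the Itgav window held 1. The motif was in a window of 9 of the 10 members, Anxa1 being the exception, and in 35.7% of all 32851 promoter windows of this length. The nuclear receptor half-site AGGTCA and the AP-1 site TGACTCA were in no member's window, beside 16.3% and 5.2% of all windows, and TATAAA was in those of Anxa1 and Elmo1, beside 13.6% of all windows. G and C made up 58.3% of the Gas6 window, 66.0% of the Mertk window and 67.3% of the Itgav window, beside a median of 52.7%. The motifs were searched on both strands, do not overlap each other in sequence, and are a description of these windows only. In the same build, the gene bodies lie at chr8:13465374-13494490 (Gas6), chr2:128698956-128802894 (Mertk) and chr2:83724397-83806916 (Itgav).

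Across the 18 libraries the levels of the members spanned a wide range. Anxa1 had the highest mean (562 RPKM, 468.6 to 640.1), followed by Itgb5 (98.2 RPKM), Gas6 (69.0 RPKM), Itgav (56.0 RPKM) and Axl (52.3 RPKM). Pros1 (12.3 RPKM), Elmo1 (12.0 RPKM), Mfge8 (7.95 RPKM) and Mertk (4.11 RPKM) came next. Tyro3 was last at 0.13 RPKM, at an estimated 23.1 to 68.1 reads per library, and reached 0.1 RPKM in 13 of 18 libraries. Only the steps from Anxa1 to Itgb5, from Axl to Pros1 and from Mertk to Tyro3 separated the ranges of the neighbours. Gas6 exceeded Itgav in 9 of 18 libraries, Itgav exceeded Axl in 12 and Pros1 exceeded Elmo1 in 12, so these neighbours had no fixed order. Axl was thus the most abundant TAM receptor in every group, above Mertk in each of the 18 libraries.

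**Figure D1:**
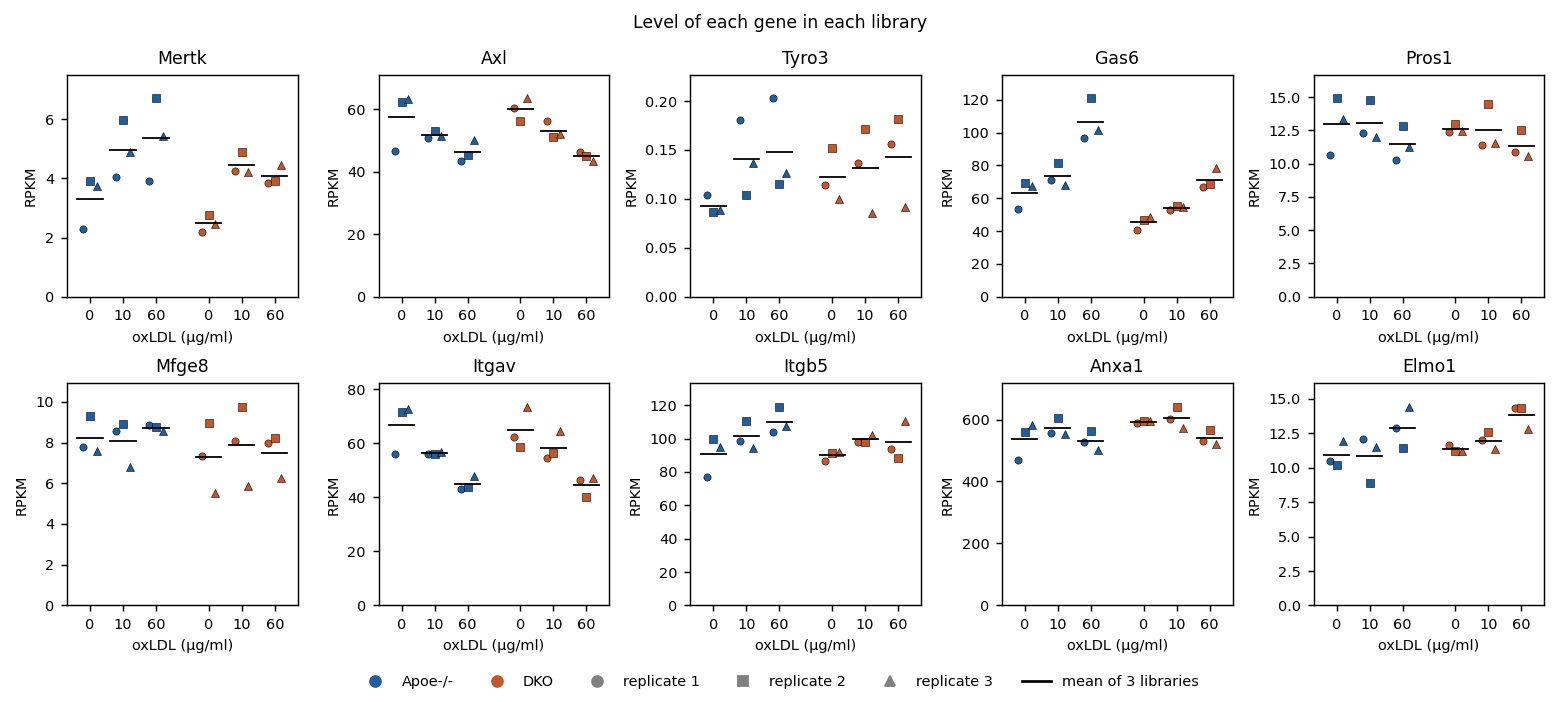
Level of each of the 10 genes in each library, in RPKM (vertical axes, each from 0), by oxLDL concentration in µg/ml (horizontal axes). Blue marks Apoe-/- and orange DKO, the shape gives the replicate number, and the black bar is the mean of 3 libraries. Gas6 lies between 96.8 and 121 RPKM in Apoe-/- cells at oxLDL 60, above every other group, and Itgav and Axl descend with the concentration in both genotypes.

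The first question was what lipid loading does to these genes. At oxLDL 60, Gas6 and Mertk rose and Itgav fell in Apoe-/- cells, and the same 3 members were called in the same directions in DKO cells. A gene was called at a limma adjusted p under 0.05 (Benjamini-Hochberg over the 12838 genes) and a fold of at least 1.4. That was 3 of 10 members, beside 13.9% of all genes in Apoe-/- cells and 12.2% in DKO cells. The median log2 fold change of the members was 0.17 in Apoe-/- (0.06 over all genes) and 0.09 in DKO (-0.06 over all genes). The ranges of treated and untreated libraries did not overlap for 5 members in Apoe-/- and 6 in DKO, as they did for 40.7% and 42.6% of all genes. The remaining 7 members lay between a log2 fold change of -0.42 and 0.35.

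Gas6, the ligand that binds all TAM receptors, showed the clearest dose series. In Apoe-/- cells it stood at 53.3, 69.1 and 67.5 RPKM untreated, at 71.1, 81.6 and 68.2 RPKM at oxLDL 10 and at 96.8, 121 and 102 RPKM at oxLDL 60. In DKO cells it stood at 40.7, 46.7 and 48.8 RPKM untreated, at 52.6, 55.0 and 54.8 RPKM at oxLDL 10 and at 66.8, 68.6 and 78.6 RPKM at oxLDL 60. In both genotypes all libraries at oxLDL 60 were above all libraries of the other treatments. The log2 fold change at oxLDL 60 was 0.75 ± 0.11 (SE) in Apoe-/-, or 1.69-fold (limma adjusted p = 4.23e-05), and 0.65 ± 0.11 in DKO, or 1.57-fold (limma adjusted p = 0.000197), on the log2(RPKM + 0.1) scale used throughout. Neither call was lost when any library was left out. In the gene annotation, 34 exon bases of Gas6 are shared with Tmem255b on the opposite strand. The study's methods name a stranded library kit, but whether the counting used strand is not given in the sources used here.

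Pros1, the ligand of Mertk and Tyro3, and Mfge8 showed no such series. Group means of Pros1 lay between 11.3 and 13.0 RPKM, and its log2 fold change at oxLDL 60 was -0.17 (95% interval -0.43 to 0.09) in Apoe-/- and -0.16 (-0.42 to 0.11) in DKO. For Mfge8, group means lay between 7.27 and 8.73 RPKM and the log2 fold changes were 0.09 (-0.28 to 0.47) and 0.06 (-0.32 to 0.43). Mfge8 varied more between DKO cultures than between treatments: it stood at 5.51, 5.86 and 6.24 RPKM in the libraries of DKO replicate 3 and at 7.34 RPKM or more in the other DKO libraries. Within each library, Gas6 exceeded Pros1 4.9 ± 0.235-fold (SD, n = 3) in untreated Apoe-/- cells and 9.31 ± 0.222-fold at oxLDL 60, and in DKO the ratio was 3.6 ± 0.311 and 6.35 ± 0.979. The ratios at oxLDL 60 and in untreated cells did not overlap in either genotype, whereas in DKO those at oxLDL 10 (3.79 to 4.73) overlapped with untreated ones (3.30 to 3.92).

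**Figure D2:**
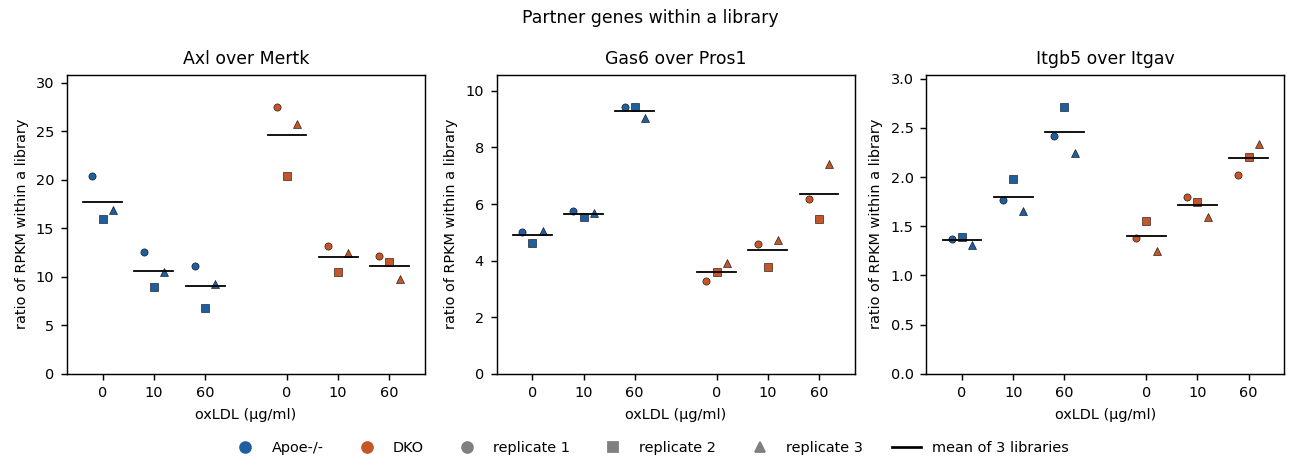
Ratios of RPKM of partner genes within a library (vertical axes, from 0) by oxLDL concentration in µg/ml (horizontal axes), with Apoe-/- in blue, DKO in orange, the replicate number as shape and the mean of 3 libraries as a bar. From untreated cells to oxLDL 60, Axl over Mertk descends from a mean of 17.7 to 9.03 in Apoe-/- and from 24.6 to 11.1 in DKO, while Gas6 over Pros1 and Itgb5 over Itgav ascend.

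Mertk, the TAM receptor tied to clearance of apoptotic cells by macrophages, was the low one of the pair it forms with Axl here. Its level was 2.29, 3.91 and 3.75 RPKM in untreated Apoe-/- cells, 4.06, 5.98 and 4.89 RPKM at oxLDL 10 and 3.92, 6.71 and 5.43 RPKM at oxLDL 60. In DKO it was 2.20, 2.76 and 2.47 RPKM untreated, 4.27, 4.89 and 4.20 RPKM at oxLDL 10 and 3.83, 3.92 and 4.46 RPKM at oxLDL 60. The treated groups lay above the untreated group in both genotypes, and the levels at 10 and 60 µg/ml overlapped. At oxLDL 60 the log2 fold change was 0.68 ± 0.20 in Apoe-/- (1.60-fold, limma adjusted p = 0.0147) and 0.70 ± 0.20 in DKO (1.62-fold, limma adjusted p = 0.0143). In Apoe-/- the call was lost without untreated replicate 1 (0.44, limma adjusted p = 0.0936) or without oxLDL 60 replicate 2 (0.50, limma adjusted p = 0.0856). In DKO it was lost without untreated replicate 1 (0.62, limma adjusted p = 0.0632) or without oxLDL 60 replicate 3 (0.63, limma adjusted p = 0.0547).

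Axl, the TAM receptor that binds Gas6 and not protein S, went the other way in value. It was at 46.8, 62.4 and 63.2 RPKM in untreated Apoe-/- cells and at 43.5, 45.3 and 50.1 RPKM at oxLDL 60, where the low value of untreated replicate 1 made the ranges overlap. In DKO it was at 60.6, 56.3 and 63.6 RPKM untreated and at 46.5, 45.1 and 43.6 RPKM at oxLDL 60, with no overlap. The log2 fold change was -0.30 ± 0.09 in Apoe-/- (limma adjusted p = 0.0196) and -0.42 ± 0.09 in DKO (limma adjusted p = 0.00263), past the limit on p but under 1.4-fold, so Axl was not called. Axl over Mertk was 17.7 ± 2.35 (SD, n = 3), 10.6 ± 1.81 and 9.03 ± 2.18 from untreated to oxLDL 10 and oxLDL 60 in Apoe-/-, and 24.6 ± 3.73, 12.0 ± 1.39 and 11.1 ± 1.22 in DKO. Untreated and treated ratios did not overlap. Tyro3, the TAM receptor better known from the nervous system, had group means between 0.0931 and 0.148 RPKM and log2 fold changes of 0.35 (95% interval -0.09 to 0.78) in Apoe-/- and 0.12 (-0.32 to 0.55) in DKO at oxLDL 60. Tyro3 was not called in either genotype. Its Apoe-/- libraries did not overlap (0.0863 to 0.104 RPKM untreated and 0.115 to 0.203 RPKM at oxLDL 60), whereas its DKO libraries did. Whether depth limited the detection of a difference was not tested.

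Itgav, the alpha v chain shared by several vitronectin receptors, was the member called lower. It stood at 55.9, 71.7 and 72.6 RPKM in untreated Apoe-/- cells, at 55.9, 56.1 and 56.9 RPKM at oxLDL 10 and at 43.0, 43.8 and 47.9 RPKM at oxLDL 60. In DKO it stood at 62.5, 58.7 and 73.4 RPKM, at 54.5, 56.3 and 64.4 RPKM and at 46.5, 40.1 and 47.3 RPKM. At oxLDL 60 every library was below every library of the other treatments of its genotype. Its log2 fold change was -0.56 ± 0.10 in Apoe-/- (1.48-fold lower, limma adjusted p = 0.000464) and -0.54 ± 0.10 in DKO (1.45-fold lower, limma adjusted p = 0.000806). The DKO value went under 1.4-fold without untreated replicate 3 (-0.44), without oxLDL 60 replicate 2 (-0.46) and when libraries were rescaled by the median ratio of genes (-0.47), each with a limma adjusted p of at most 0.00685. Annotated exons of Itgav share 634 bases with Gm13684 on the opposite strand.

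Its partner chain Itgb5 did not follow. In Apoe-/- it was at 76.8, 99.8 and 94.9 RPKM untreated and at 104, 119 and 107 RPKM at oxLDL 60, with no overlap, a log2 fold change of 0.29 ± 0.10 and a limma adjusted p of 0.0305, under 1.4-fold. In DKO it was at 86.5, 91.4 and 91.7 RPKM untreated and at 94.0, 88.4 and 110.7 RPKM at oxLDL 60, with a log2 fold change of 0.11 (95% interval -0.09 to 0.32). Itgb5 over Itgav within a library was 1.36 ± 0.0444 (SD, n = 3), 1.80 ± 0.162 and 2.46 ± 0.24 from untreated to oxLDL 10 and oxLDL 60 in Apoe-/-, and 1.4 ± 0.154, 1.71 ± 0.11 and 2.19 ± 0.159 in DKO. No ratio at a higher concentration overlapped with one at a lower concentration in the same genotype.

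Anxa1, the most abundant member, ranged from 468.6 to 640.1 RPKM over all libraries and had log2 fold changes of -0.01 (95% interval -0.18 to 0.15) in Apoe-/- and -0.14 (-0.31 to 0.03) in DKO at oxLDL 60. Its DKO libraries did not overlap (589.5 to 594.9 RPKM untreated and 519.6 to 566.7 RPKM at oxLDL 60), but it was not called. Elmo1, the adaptor of the Rac exchange complex, had means of 10.9 ± 0.935 RPKM (SD, n = 3) untreated and 12.9 ± 1.48 RPKM at oxLDL 60 in Apoe-/-, and of 11.4 ± 0.258 and 13.8 ± 0.91 RPKM in DKO. Its log2 fold changes were 0.24 (limma adjusted p = 0.0945) and 0.28 (limma adjusted p = 0.0563), and the DKO libraries did not overlap.

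At oxLDL 10 the calls were fewer. No member was called in Apoe-/- cells, beside 2.79% of all genes, and 2 of 10 members had an unadjusted limma p under 0.05, beside 22.4% of all genes. In DKO cells Mertk alone was called, which is 1 of 10 members beside 2.26% of all genes. Its log2 fold change there was 0.82 ± 0.20 (limma adjusted p = 0.0224), and in Apoe-/- it was 0.59 ± 0.20 (limma adjusted p = 0.0843) with no overlap between the groups. With the replicate number kept as a block within genotype, Mertk was called in Apoe-/- too (limma adjusted p = 0.000271), as it was with a term for the libraries that held Xist (limma adjusted p = 0.0306). The DKO call was lost without untreated replicate 1 (0.74) or 3 (0.82), without oxLDL 10 replicate 1 (0.85) or 2 (0.76), and with no filter on low values (0.82), at limma adjusted p values from 0.0647 to 0.118. Gas6 at oxLDL 10 had log2 fold changes of 0.22 ± 0.11 in Apoe-/- and 0.26 ± 0.11 in DKO, neither past the limit.

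Between the concentrations, Gas6 rose from oxLDL 10 to oxLDL 60 in Apoe-/- cells and was 1 of 10 members called, beside 6.46% of all genes. Its log2 fold change was 0.53 ± 0.11 (limma adjusted p = 0.00269), which went under 1.4-fold without oxLDL 10 replicate 3 (0.48) or without oxLDL 60 replicate 2 (0.43). In DKO no member was called, beside 5.66% of all genes, and 3 of 10 members had an unadjusted limma p under 0.05, beside 28.8% of all genes. Gas6 (0.39 ± 0.11, limma adjusted p = 0.0195) and Itgav (-0.39 ± 0.10, limma adjusted p = 0.0169) passed the limit on p there but not 1.4-fold, and Itgav did likewise in Apoe-/- (-0.33 ± 0.10, limma adjusted p = 0.0431). These comparisons share the libraries at oxLDL 60 with those against untreated cells.

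The second question was whether loss of Treml4 changed these genes. At each treatment the 3 DKO libraries had less Gas6 than the 3 Apoe-/- libraries, with no overlap, and no other member was called at any treatment. The same replicate numbers recur at each treatment and same-numbered libraries deviated together, so these are not 3 independent comparisons. The genotypes also did not overlap for 19.6% of all genes untreated, 12.1% at oxLDL 10 and 16.5% at oxLDL 60. Among the other members this held for Anxa1 in untreated cells (468.6 to 581 RPKM in Apoe-/- and 589.5 to 594.9 RPKM in DKO) and for Mfge8 at oxLDL 60 (8.58 to 8.85 and 6.24 to 8.23 RPKM), with limma adjusted p values of 0.338 and 0.764. The log2 fold change of Gas6, DKO against Apoe-/-, was -0.47 ± 0.11 untreated (limma adjusted p = 0.068), -0.44 ± 0.11 at oxLDL 10 (limma adjusted p = 0.267) and -0.57 ± 0.11 at oxLDL 60 (limma adjusted p = 0.0411). Only the last was called, as 1 of 10 members beside 0.125% of all genes (16 genes), a level 1.49-fold lower in DKO. Untreated cells had 0 of 10 members called beside 0.21% of all genes, and cells at oxLDL 10 had 0 of 10 beside 0.0857%. In these 2 comparisons, Gas6 was the 1 member of 10 with an unadjusted limma p under 0.05, beside 17.3% of all genes untreated and 9.75% at oxLDL 10.

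The Gas6 difference at oxLDL 60 kept its sign but lay near the limit. It was no longer called without Apoe-/- oxLDL 60 replicate 1 (-0.64), 2 (-0.48) or 3 (-0.60) or without DKO oxLDL 60 replicate 1 (-0.53) or 2 (-0.55), with limma adjusted p values from 0.057 to 0.308, nor with no filter on low values (limma adjusted p = 0.103), with rescaled libraries (limma adjusted p = 0.09) or when the fit held just these groups (limma adjusted p = 0.227). In untreated cells the difference became a call without Apoe-/- replicate 1 (-0.59, limma adjusted p = 0.0281) or DKO replicate 3 (-0.53, limma adjusted p = 0.0464). With a term for the libraries that held Xist it had a limma adjusted p of 0.0024 untreated, 0.00875 at oxLDL 10 and 0.000966 at oxLDL 60, at the same fold changes. Without those 6 libraries the values were -0.46, -0.37 and -0.55.

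Marker genes of other cells differed between the cultures too. The 10 fibroblast and stromal markers, of which Lum, Pdgfra and Thy1 were under 0.1 RPKM in every library, summed to 17.2 to 18.5 RPKM in Apoe-/- replicate 1, 0.771 to 1.17 in replicate 2 and 9.44 to 11.4 in replicate 3, and to 4.74 to 5.3, 5.66 to 7.43 and 1.27 to 1.79 RPKM in DKO replicates 1, 2 and 3. Without the 3 libraries highest in stromal markers, Gas6 differed by -0.59 untreated (limma adjusted p = 0.0438), -0.46 at oxLDL 10 (limma adjusted p = 0.187) and -0.64 at oxLDL 60 (limma adjusted p = 0.0319). This removal left Apoe-/- replicate 3 above and replicate 2 below every DKO library in these markers. The genotypes therefore stayed uneven, and the part of stromal cells in the Gas6 difference was not tested. The 10 neutrophil and granulocyte precursor markers, with Ly6g under 0.1 RPKM in every library, summed to 32.0 to 50.7 RPKM in Apoe-/- and to 34.5 to 86.4 RPKM in DKO libraries, and their part in the difference was not tested. Most defining markers of dendritic, endothelial, lymphoid and mast cells, among them Flt3, Zbtb46, Tie1, Cldn5, Cd3e, Cpa3 and Fcer1a, were under 0.1 RPKM in every library. Of the 6 endothelial markers, Cdh5 and Kdr averaged at least 0.1 RPKM, and this list summed to between 2.49 and 4.51 RPKM. The 8 lymphocyte markers, of which 2 averaged at least 0.1 RPKM, summed to between 1.21 and 2.65 RPKM. The 9 erythroid and megakaryocyte markers summed to between 126 and 195 RPKM, nearly all of it Pf4, a platelet chemokine gene that macrophages can also express (125.6 to 194.8 RPKM), while the globin genes and Alas2 were under 0.1 RPKM in every library.

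Mertk was lower in DKO in value, by -0.38 (95% interval -0.79 to 0.04) untreated, -0.14 (-0.56 to 0.27) at oxLDL 10 and -0.36 (-0.77 to 0.06) at oxLDL 60, and the genotypes overlapped. At oxLDL 10 the sign turned without the libraries that held Xist (0.04). Over the 8 members other than Gas6 and Mertk, log2 fold changes between genotypes lay from -0.19 to 0.20 untreated, from -0.06 to 0.16 at oxLDL 10 and from -0.23 to 0.10 at oxLDL 60. The widest 95% bounds among them, over all treatments, were -0.61 and 0.63, the upper one from Tyro3. Without Tyro3 the highest bound was 0.37. These are extremes of single genes, and for each gene only differences within its own interval cannot be told from none.

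Whether genotype altered the response to oxLDL was tested as an interaction. At oxLDL 10 no member was called, beside 0% of all genes, and at oxLDL 60 no member was called, beside 0.0156% of all genes. No member had an unadjusted limma p under 0.05 in either test, beside 1.92% of all genes at oxLDL 10 and 9.78% at oxLDL 60. The interaction of Gas6 at oxLDL 60 was -0.10 (95% interval -0.42 to 0.22, limma adjusted p = 0.831), and the members ran from -0.23 to 0.04, beside a median of -0.11 over all genes, which rescaling of the libraries brought to 0.01. At oxLDL 10 the members ran from -0.26 to 0.23. The 95% bounds reached -0.87 and 0.82 at oxLDL 10 and -0.84 and 0.61 at oxLDL 60.

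**Figure D3:**
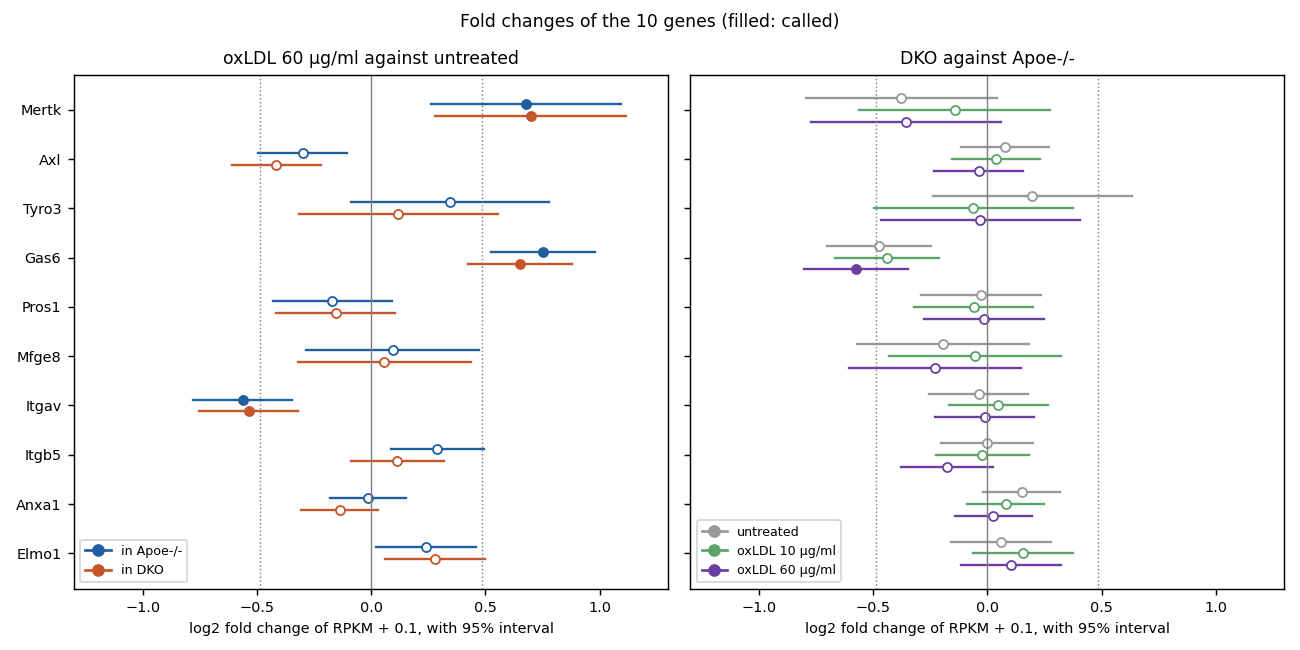
Log2 fold change of RPKM + 0.1 (horizontal axes) of each gene with its 95% interval from the limma fit. The left panel sets oxLDL 60 µg/ml against untreated cells in Apoe-/- (blue) and DKO (orange), the right panel sets DKO against Apoe-/- untreated (grey), at oxLDL 10 (green) and at oxLDL 60 (purple), filled points were called and dotted lines mark 1.4-fold. Gas6 and Mertk are to the right and Itgav to the left in both genotypes, and Gas6 is to the left in all 3 comparisons of genotypes.

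Across the 18 libraries some members varied together. Pearson's r of log2(RPKM + 0.1), a description over libraries that share treatments and cultures, was 0.90 for Axl and Itgav, 0.84 for Mertk and Itgb5, 0.77 for Mertk and Gas6 and 0.74 for Gas6 and Itgb5. The lowest was -0.59, for Tyro3 and Itgav. Among all genes with a mean of at least 1 RPKM, the levels most like those of Gas6 included those of Crat (r = 0.95) and Clec4n (0.94), and the levels most like those of Mertk were those of Retreg3 (0.92), Tmem86a (0.91) and Prxl2c (0.91). For Itgav they were Zfp217, Ly6e and Peli1 (0.98, 0.98 and 0.97), and for Axl they were Atp9b, Lgals3bp and Wdr37 (0.95, 0.94 and 0.94). Itgb5 was most like Serf2, Dcaf12 and Hfe (0.93, 0.93 and 0.92), Elmo1 like Utrn, Ralgapb and Uhrf1bp1l (0.95, 0.94 and 0.93), Anxa1 like Ensa, Zfp956 and Inip (0.90, 0.87 and 0.86), Pros1 like Acp5, Arhgap1 and Ncoa4 (0.89, 0.87 and 0.84) and Mfge8 like Prokr1, Copz2 and Tceal1 (0.84, 0.82 and 0.81). The genes most like Itgav and Mertk kept an r of at least 0.90 over the 12 libraries without Xist, whereas those most like Mfge8 went to between 0.60 and 0.71.

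Around the 10 members, 108 further genes linked to the pathway were listed by role, and 96 of them passed the filter. The lists were chosen with earlier results of these data known. They also hold general genes, such as targets of nuclear receptors and genes of the cytokine response. Their shares are therefore a description and no test of efferocytosis. At oxLDL 60, 16 were called higher and 18 lower in Apoe-/- (35.4% of 96, beside 13.9% of all genes) and 13 higher and 18 lower in DKO (32.3%, beside 12.2%). The genotypes had 29 of these genes in common, 85.3% of the Apoe-/- calls and 93.5% of the DKO calls. At oxLDL 10, 5 were called higher and 7 lower in Apoe-/- (12.5%, beside 2.79% of all genes), and 6 higher and 7 lower in DKO (13.5%, beside 2.26%). No gene of these lists was called between genotypes by limma, and 10, 9 and 13 of the 96 had an unadjusted p under 0.05 untreated, at oxLDL 10 and at oxLDL 60. These were 10.4%, 9.38% and 13.5% of the 96, beside 17.3%, 9.75% and 7.88% of all genes. The genes named below by list were named because they were called, except those with the largest folds, which a rule on size selected. Each count by list at oxLDL 60 stands beside the same 13.9% of all genes called in Apoe-/- and 12.2% in DKO.

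Among 14 other uptake receptors tested, 5 were called higher and 2 lower at oxLDL 60 in Apoe-/-, and 4 higher and 2 lower in DKO. Cd300a, an inhibitory receptor for phosphatidylserine, went from 38.2 ± 1.59 RPKM (SD, n = 3) to 113 ± 6.6 RPKM in Apoe-/-, so that its log2 fold change was 1.56 with an SE of 0.09 (limma adjusted p = 1.49e-09). Havcr2, another phosphatidylserine receptor, rose by 1.10 in Apoe-/- and 0.89 in DKO, and Cd300lf, of the same family as Cd300a, by 0.94 and 0.84. The scavenger receptor Cd36 rose by 1.17 and 1.04, while Cd14, a lipopolysaccharide co-receptor that also binds apoptotic cells, fell by 1.61 and 1.81 and Scarf1 fell by 0.83 and 0.83. Among 10 other bridging molecules, the calls were the same 3 in both genotypes: the opsonin C3 was lower (-2.29 in Apoe-/- and -2.02 in DKO), and Edil3, a homologue of Mfge8 (0.56 and 0.54), and Lgals3, a ligand of Mertk (0.77 and 0.61), were higher.

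The list of TAM receptor shedding and feedback had 7 of 10 tested genes called lower and none called higher at oxLDL 60, in both genotypes, with a median log2 fold change of -0.53 in Apoe-/- and -0.60 in DKO. Adam17, the protease that cleaves Mertk from the cell surface, fell by 0.52 in each genotype, and its trafficking partner Rhbdf2 fell by 0.53 and 0.59. Socs3, a suppressor of cytokine signalling induced through TAM receptors and by many cytokines, went from 14.4 ± 3.98 RPKM (SD, n = 3) to 0.921 ± 0.272 RPKM in Apoe-/- (log2 fold change -3.82 ± 0.20, limma adjusted p = 6.62e-10). The DKO means were 16.5 ± 3.27 RPKM and 1.19 ± 0.113 RPKM (-3.68 ± 0.20, limma adjusted p = 1.23e-09). Among the others called were Rhbdf1, Socs1 and Ifnar1, of which Socs1 and Ifnar1 are general genes of the interferon and cytokine response.

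Of 15 nuclear receptors, factors and their targets, 4 were called higher and 2 lower at oxLDL 60 in each genotype. Abcg1, a cholesterol exporter induced by liver X receptors (LXR), the sterol sensors that also act on Mertk, went from 21.8 ± 8.01 RPKM (SD, n = 3) to 87.7 ± 8.52 RPKM in Apoe-/- (log2 fold change 2.08 ± 0.24, limma adjusted p = 3.9e-06). The DKO means were 12.8 ± 4.6 RPKM and 85.1 ± 0.618 RPKM (2.79 ± 0.24, limma adjusted p = 1.53e-07). The LXR targets Abca1 (1.29 and 2.19) and Mylip (1.39 and 1.61) were called with it, at oxLDL 10 as well, while the LXR gene Nr1h3 was lower (-1.01 and -0.91). Ppard was higher (1.23 and 1.4) and Maf lower (-1.31 and -1.4). Of the annexin A1 list, its receptors Fpr1 (-4.22 in Apoe-/- and -3.89 in DKO) and Fpr2 (-3.91 and -3.62) were called lower, and none of the other 8 tested was called.

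Of 7 receptors for find-me signals, 4 were called in each genotype at oxLDL 60, 2 higher and 2 lower in Apoe-/- and 1 higher and 3 lower in DKO. Cx3cr1, the fractalkine receptor, fell by 2.54 and 2.68 and Gpr132 by 1.15 and 1.01, while S1pr1 rose by 0.65 and 0.51. P2ry2 was called higher in Apoe-/- only (0.58) and P2ry6 lower in DKO only (-0.54). Each changed likewise in the other genotype, past the limit on p and without overlap, but under 1.4-fold. P2ry2 rose by 0.46 in DKO (limma adjusted p = 0.0361), and P2ry6 changed by -0.43 in Apoe-/- (limma adjusted p = 0.000269). Neither had a called interaction with genotype at oxLDL 60 (-0.12 and -0.10). Of 25 other genes of the engulfment machinery, 3 were called higher and 1 lower in Apoe-/- and 2 higher and 0 lower in DKO. Vav3, an exchange factor for Rac, was the 1 called in both (0.76 and 0.72). Of 5 do-not-eat-me genes, Cd24a was called lower in both (-0.73 and -0.69). Its level was low, with means going from 0.657 to 0.354 RPKM in Apoe-/- and from 0.793 to 0.467 RPKM in DKO. The median log2 fold change of these 5 genes was -0.27 in Apoe-/- and -0.24 in DKO.

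**Figure D4:**
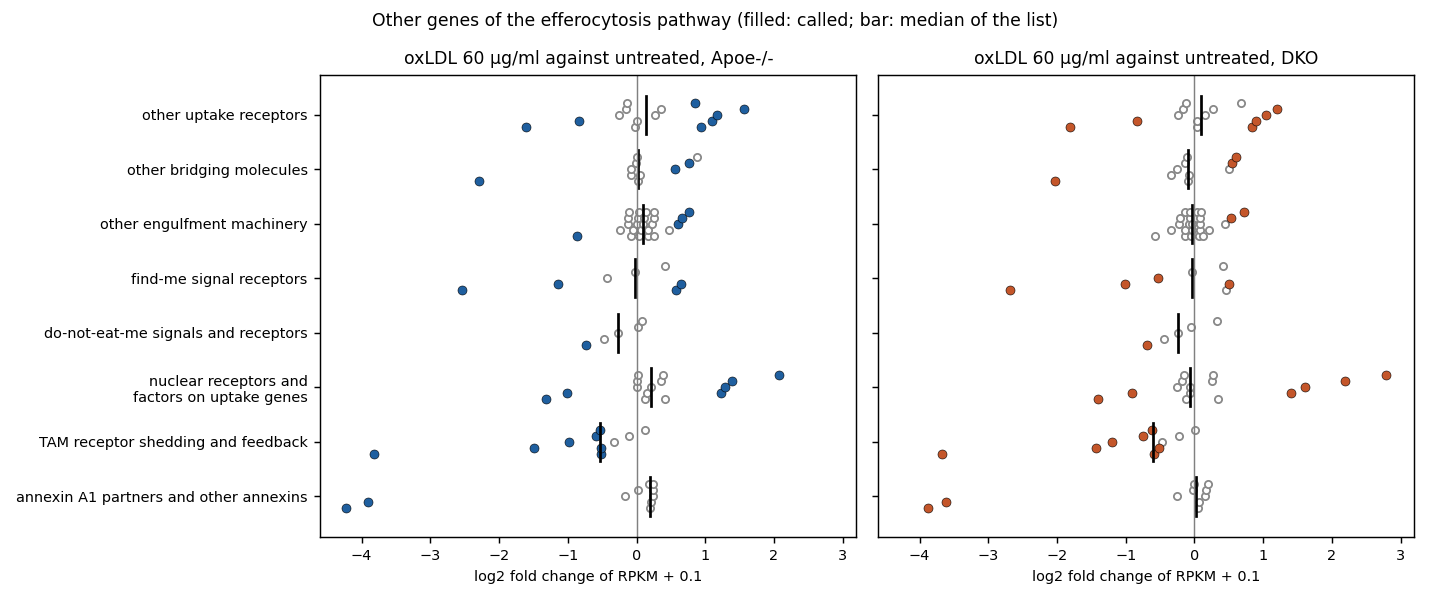
Log2 fold change of RPKM + 0.1 at oxLDL 60 µg/ml against untreated cells (horizontal axes) for the 96 further pathway genes tested, by list (vertical axis), in Apoe-/- (left) and DKO (right). Filled points were called and the black bar is the median of the list: the list of TAM receptor shedding and feedback lies to the left with medians of -0.53 and -0.60, and the points furthest left are Fpr1, Fpr2 and Socs3.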

How the data were processed

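Total RNA of 18 BMDM cultures was sequenced. The authors aligned reads to mm10, and the submitters' processing notes name STAR. The deposited values are RPKM per gene. The study's methods name a stranded TruSeq kit, without stating it for the oxLDL libraries separately, and a workflow that includes STAR and Subread. The annotation and the strand setting of the counting are not given in the sources used here. Of 18668 genes, 24 carried date-like symbols. Depth (39.7 to 54.2 M reads) was estimated from the steps between low RPKM values, which only 29.8% of 2923 low genes followed, so read numbers are approximate.

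RPKM were tested as log2(RPKM + 0.1) with limma 3.58.1 (R 4.3.3; lmFit and eBayes with a trend) over all 6 groups, for genes at 0.1 RPKM or more in at least 3 libraries, with Benjamini-Hochberg adjustment within each comparison. The study's count test could not be used on RPKM, but its limits (adjusted p under 0.05, at least 1.4-fold) were kept. The p-values measure the spread between the 3 cultures of a group, pooled over the 6 groups. The main fit had no replicate block, so it treated same-numbered libraries as independent although they deviated together. An exact permutation test of 3 against 3 cannot go below 0.1. All members were named; of other pathway genes, up to 3 higher and 3 lower per comparison with the largest fold and no overlap, and for each member with a mean of at least 1 RPKM (all but Tyro3) the 3 genes of most similar level, of which 1 is not reported here. The members and lists were chosen with earlier results of these data known. Only in the alternative with a replicate block were replicate numbers taken to pair libraries within a genotype. The reason was that same-numbered libraries deviated together (r 0.18 to 0.69 in 18 of 18 pairs). The fit was tested on simulated data. Alternatives were the filter, pseudocount, scaling, groups in the fit, replicate block, Xist, single libraries and, chosen after seeing the data, the 3 libraries highest in stromal markers.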

Additional observations from a re-analysis of the deposited data

How the results depend on the processing

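Of 550 alternatives over 35 fold changes, 514 kept the direction and the side of the limits, 22 lost a call, 5 gained one and 9 turned sign, all 9 among values that were not called. Alternatives in the filter, the groups in the fit, the replicate block or the Xist term leave a fold change as it was. They can move a call but cannot turn a sign, so the 514 are no measure of how stable the directions are. The interaction of Gas6 at oxLDL 60 was 0.0261 with rescaled libraries, and without single libraries ran from -0.1771 to 0.01814 (without untreated Apoe-/- replicate 1). Mertk between genotypes at oxLDL 10 was 0.03516 without the libraries that held Xist. Mfge8 at oxLDL 60 in DKO was -0.001354 without those libraries and -0.125 to 0.2207 without single libraries (negative without untreated replicate 3 or oxLDL 60 replicate 2). Anxa1 at oxLDL 60 in Apoe-/- ran from -0.1077 to 0.0474 without single libraries (positive without untreated replicate 2 or 3 or oxLDL 60 replicate 3). The cause was not tested.

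Members called at oxLDL 10 in Apoe-/- went from 0 to 1 with the replicate block and 1 with the Xist term. The block, which follows the pairing of libraries within a genotype, changed no other count of members. It leaves fold changes as they are, because each replicate number occurs once per group. No other uncalled member was past 1.4-fold, so the block could lower those counts but could not raise them. With no limit on fold, members called were 5 at oxLDL 60 and 2 from oxLDL 10 to 60 in Apoe-/-, and 4 and 2 in DKO. The share of all genes at that setting is not given here. With no filter, the DKO call at oxLDL 10 and the call between genotypes at oxLDL 60 went to 0, the latter also with rescaled libraries and with the groups compared alone. Leaving out single libraries gave 2 to 3 at oxLDL 60 in each genotype (Mertk, and in DKO also Itgav, being lost), and 0 to 1 for oxLDL 10 to 60 in Apoe-/-, oxLDL 10 in DKO, and genotypes untreated and at oxLDL 60. Without the 3 libraries highest in stromal markers, 1 member was called between untreated genotypes. Tyro3 had the fewest estimated reads of the members, 23.1 to 68.1 per library.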
